A study of Homo sapiens with 12 samples.

Results

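The genes described here encode the matrix metalloproteases (MMP), the ADAMTS proteases, the ADAMTS-like proteins (ADAMTSL) and the tissue inhibitors of metalloproteases (TIMP). They were taken by gene symbol and number, which gave 50 of the 27064 symbols counted: 22 MMP, 19 ADAMTS, 5 ADAMTSL and 4 TIMP genes. The rule uses no measured value. RNA had been sequenced from NCI-H226 (H226), an established human mesothelioma line, and from ACHN, an established human kidney cancer line. Both are described by the submitters as lacking NF2, which encodes merlin, so controls and treated cells of both lines share that lesion and no line with intact NF2 was part of the design. Each line was held overnight either in DMSO or in 100 nM SWTX-143, a compound that blocks TEAD transcription factors irreversibly, with 3 libraries in each of the 4 groups. Whether the libraries within a group came from separate cultures is not stated in the labels, so p-values measure the spread between these samples only, which may be technical.

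MMPs are zinc proteases that cut collagens, basement membrane and many cell surface proteins. Most are secreted as inactive precursors, while the membrane-type members act at the cell surface, where MMP14 together with TIMP2 activates the gelatinase MMP2. ADAMTS proteases are secreted and are known for cutting proteoglycans such as versican and aggrecan, for trimming procollagens and for acting on fibrillin microfibrils. ADAMTSL proteins resemble them but have no protease domain and bind to the matrix. TIMPs block MMPs, and TIMP3, which stays bound to the matrix, also blocks several ADAM and ADAMTS proteases. TEAD factors with their coactivators YAP and TAZ switch on matrix and adhesion genes, and they often bind beside AP-1 factors.

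Total counts ran from 9690980 to 11262663 per library, and levels are given as counts-per-million (CPM) on libraries scaled together by TMM, edgeR's correction for RNA composition. The lines carried the RNAs of their labelled tissues: all 6 mesothelial markers tested were higher in H226, among them CALB2 (1026 CPM against 0.507 in ACHN), and all 5 kidney markers tested were higher in ACHN, among them PAX8 (392 CPM against 1.19 in H226). Of 4 leukocyte markers, PTPRC had 0 counts in all 12 libraries and CD3E stayed below 1 CPM, while CD14 was at 1.95 CPM in H226 and 0.303 CPM in ACHN under DMSO. CD68, a lysosomal protein of macrophages and other cells, was at 9.92 and 44.1 CPM and rose under the drug in both lines (log2 0.32 and 0.42, edgeR adjusted p = 0.0329 and 2.65e-07), and its part in the results was not tested. The endothelial markers PECAM1, CDH5 and VWF stayed below 1 CPM in every group mean. Of the 4 fibroblast markers PDGFRA, COL1A1, DCN and LUM, 1 passed the filter between lines and was higher in H226 (log2 7.71). Under the drug 1 of them was tested in each line and was not called (log2 0.07 in H226 and 0.12 in ACHN). SWTX-143 lowered the TEAD target CTGF in both lines, from 79.8 ± 7.43 to 13.9 ± 1.22 CPM in H226 and from 109 ± 1.48 to 21.0 ± 2.06 CPM in ACHN. The third SWTX-143 library of H226 stood farthest from its group, with a chi-square per degree of freedom of 3.06 and 3.37 against the other two, where the remaining replicate pairs gave 1.35 to 2.84.

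Of the 50 genes, 31 had a promoter window in the RefSeq table (GRCh38.p14), from 250 bases before to 50 bases after the gene's start. The windows below belong to 4 genes whose RNA fell under SWTX-143, ADAMTS12 in H226, ADAMTS6 in ACHN, and ADAMTS3 and ADAMTSL4 in both lines. They are written 5′ to 3′ along the gene's own strand, with capitals for the TEAD motif CATTCC, read on both strands and so also as GGAATG, and for the AP-1 motif TGANTCA. ADAMTS12 lies at chr5:33891941-33892240 and ADAMTS6 at chr5:65481871-65482170, ADAMTS3 at chr4:72569172-72569471, all on the minus strand, and ADAMTSL4 at chr1:150549158-150549457 on the plus strand.
ADAMTS12: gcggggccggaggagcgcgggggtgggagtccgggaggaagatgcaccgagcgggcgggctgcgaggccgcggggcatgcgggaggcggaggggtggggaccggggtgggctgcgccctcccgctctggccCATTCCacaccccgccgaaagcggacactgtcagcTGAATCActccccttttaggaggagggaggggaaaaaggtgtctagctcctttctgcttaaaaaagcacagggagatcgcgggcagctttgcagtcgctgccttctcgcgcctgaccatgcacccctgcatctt
ADAMTS6: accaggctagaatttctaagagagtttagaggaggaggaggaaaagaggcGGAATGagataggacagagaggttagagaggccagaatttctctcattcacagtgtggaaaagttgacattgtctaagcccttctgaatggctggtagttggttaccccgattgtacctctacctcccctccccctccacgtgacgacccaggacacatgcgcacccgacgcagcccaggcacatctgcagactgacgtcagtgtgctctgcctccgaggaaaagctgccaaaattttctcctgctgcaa
ADAMTS3: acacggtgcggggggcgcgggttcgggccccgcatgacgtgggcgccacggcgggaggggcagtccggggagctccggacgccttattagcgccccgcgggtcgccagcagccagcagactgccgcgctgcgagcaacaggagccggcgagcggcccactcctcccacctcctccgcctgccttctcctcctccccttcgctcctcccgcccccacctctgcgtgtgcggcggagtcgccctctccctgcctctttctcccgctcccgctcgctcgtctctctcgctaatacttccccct
ADAMTSL4: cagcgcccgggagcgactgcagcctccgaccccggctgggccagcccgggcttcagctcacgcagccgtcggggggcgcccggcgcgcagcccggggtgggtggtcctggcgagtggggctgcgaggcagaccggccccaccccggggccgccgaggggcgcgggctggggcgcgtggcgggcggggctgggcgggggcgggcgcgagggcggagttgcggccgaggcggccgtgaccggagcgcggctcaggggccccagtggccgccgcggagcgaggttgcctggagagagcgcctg
In the ADAMTS12 window CATTCC begins 119 bases and TGAATCA 84 bases before the start, and in the ADAMTS6 window GGAATG begins 200 bases before it. The ADAMTS3 and ADAMTSL4 windows held neither motif, and neither did those of TIMP3 and ADAMTSL5, which fell in H226, and of MMP24, which fell in ACHN. ADAMTS1, ADAMTS15 and ADAMTS5 had no entry in the table. Over the 31 windows, 4 held the TEAD motif (12.9%, against 14% of 35116 promoters of the same length) and 4 the AP-1 motif (12.9%, against 7.71%). The other windows with CATTCC belonged to ADAMTS13 and ADAMTS20, and the AP-1 motif also occurred before MMP7, MMP10 and MMP20. These are matches of letters, not measured binding.

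Under DMSO the lines expressed different sets of these genes. H226 had 28 and ACHN 26 of them at a mean of at least 1 CPM, 17 and 12 at 10 CPM or more, and 7 and 4 at 100 CPM or more. No count at all was found for 8 genes in the H226 DMSO libraries and for 15 in those of ACHN. MMP8, MMP12, MMP13, MMP20, MMP26, MMP27 and ADAMTS19 had 0 counts in all 12 libraries, which for a DMSO group allows up to 0.0994 CPM in H226 and 0.0903 CPM in ACHN (3 counts pooled over the group, counting error only). The classical secreted collagenases were at or near 0: MMP8 and MMP13 had no count, and MMP1 had 4 pooled counts in H226 and 2 in ACHN.

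**Figure D1:**
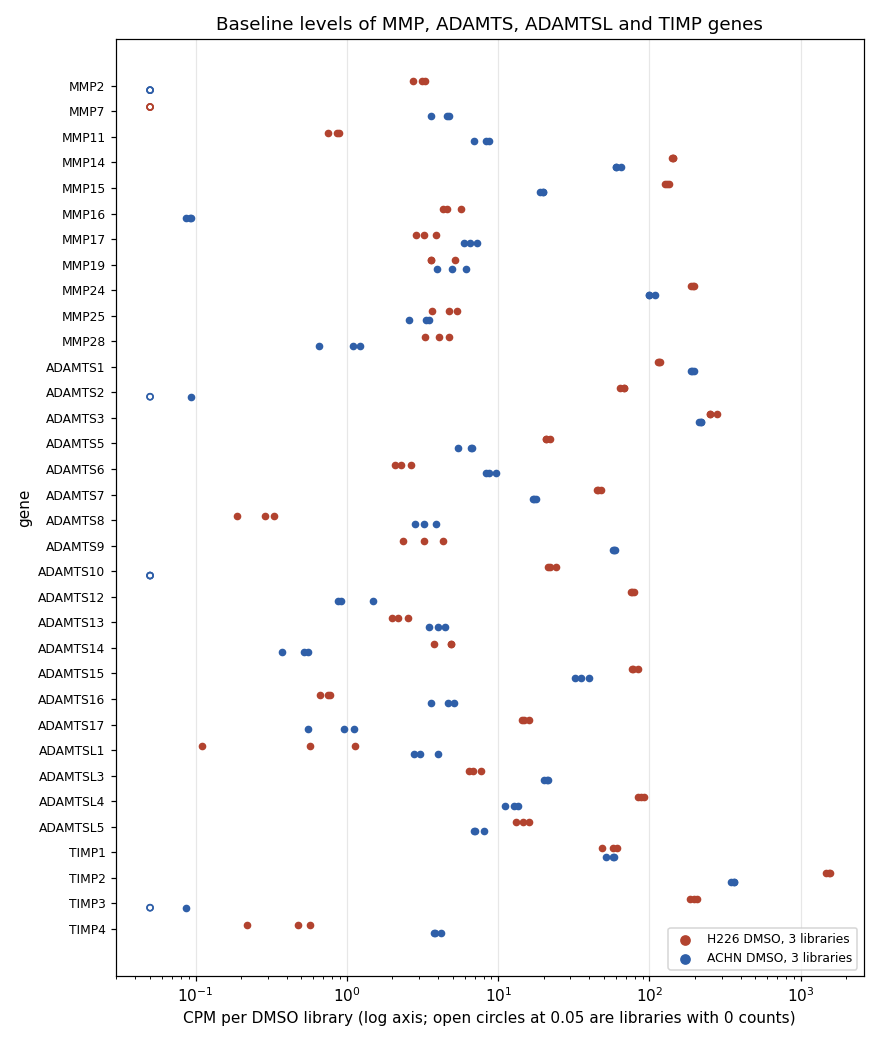
CPM in each of the 3 DMSO libraries of H226 (red) and of ACHN (blue) on a log axis, for every gene of the 4 families with a mean of at least 1 CPM in either line; open circles at the left edge are libraries with 0 counts. The H226 points of TIMP3, ADAMTS2, ADAMTS10 and MMP2 lie far to the right of their ACHN points, and for MMP7 the order is reversed. MMP2 and MMP7 are low even there, at means of 3.06 CPM in H226 and 4.30 CPM in ACHN. The TIMP1 points of the lines overlap.

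Of the 35 genes that passed the filter on low counts in the fit of all 12 libraries, 20 were higher and 12 lower in H226 than in ACHN. Over all 14664 genes tested, 84.4% were called between the lines, 42.2% in each direction, so a called gene is the usual case here. The median log2 ratio of the 35 was 0.98 against 0.00 over all genes. Of the 35, 12 passed the filter in a single line only when each line was fitted alone. Such genes entered through the line where they were high, so the filter largely set their direction. They count in the numbers and the median given here and in the family counts below. Calls are edgeR quasi-likelihood tests at a Benjamini-Hochberg adjusted p under 0.05 over all genes tested. Each line came as its own table, and the line and anything that differed in its handling cannot be told apart. Scaling by library size alone moved the median of all genes by −0.16 and gave 19 higher and 14 lower members.

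Of the 4 inhibitors, TIMP2 and TIMP3 were higher in H226, TIMP4 in ACHN and TIMP1 in neither. TIMP3 measured 186, 205 and 197 CPM in the H226 DMSO libraries, while the 3 ACHN libraries held 1 count between them, a ratio of 6500 (95% counting interval 1170 to 257000). TIMP2, which has roles both in blocking and in activating MMPs, measured 1475, 1541 and 1549 CPM in H226 and 348, 360.4 and 362 CPM in ACHN, 4.27-fold more in H226 (log2 2.09 ± 0.0399, edgeR adjusted p = 2.98e-62). TIMP4 was the reverse, at 0.421 ± 0.181 CPM in H226 and 3.91 ± 0.223 CPM in ACHN. TIMP1, the broad secreted inhibitor, was level: 48.7, 57.5 and 60.8 CPM in H226 and 51.4, 57.6 and 57.9 CPM in ACHN. Its log2 ratio was −0.00 with a 95% interval from the fit of −0.15 to 0.14, although under library size alone it was −0.17 (edgeR adjusted p = 0.0314).

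Among the membrane-type MMPs, 5 of 6 were higher in H226 and MMP17 was lower, where 84.4% of all genes tested were called between the lines. MMP14 measured 143, 141 and 142 CPM in H226 and 64.4, 59.7 and 60.0 CPM in ACHN, and MMP15 130.4 ± 3.90 against 19.5 ± 0.537 CPM. MMP24 measured 187, 195 and 198 CPM in H226 and 99.5, 99.2 and 108 CPM in ACHN. The libraries of the lines did not overlap for any of these 3 genes. Part of the MMP24 exon sequence, 799 of 4414 bases, overlaps MMP24-AS1, counted at 66.5 CPM in H226 and 59.7 in ACHN, and without a stated strand setting their reads cannot be told apart. MMP16, another membrane-type protease, had 147 pooled counts in H226 and 3 in ACHN (ratio 53.9, counting interval 18.1 to 264). The lipid-anchored MMP17 measured 3.32 ± 0.509 against 6.57 ± 0.651 CPM.

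Of the secreted MMPs, MMP2 and MMP7 each had counts in 1 line only under DMSO. The gelatinase MMP2 had 2.74, 3.14 and 3.30 CPM in H226 and 0 counts in ACHN, at least 33.7-fold higher in H226 (against 3 counts pooled over the ACHN group). The matrilysin MMP7 had 3.57, 4.74 and 4.60 CPM in ACHN and 0 counts in H226, at least 43.3-fold higher in ACHN. The other gelatinase, MMP9, was low in both, at 0.694 ± 0.148 and 0.329 ± 0.0907 CPM, and did not pass the test between lines (edgeR adjusted p = 0.0571; 0.0495 without H226 DMSO replicate 1). Stromelysin-3, MMP11, was 9.55-fold lower in H226. CHCHD10, which shares 218 of its 5176 exon bases, was at 0 in H226 and 60.9 CPM in ACHN, and what that added to the MMP11 count was not tested. MMP7 is one of 9 MMP genes that lie next to each other on chromosome 11, with MMP1, MMP3, MMP8, MMP10, MMP12, MMP13, MMP20 and MMP27. The 9 together had 145 pooled counts in ACHN DMSO, 2 of them outside MMP7, and 9 in H226 DMSO.

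Among the 15 ADAMTS proteases tested, 9 were higher and 6 lower in H226, where 84.4% of all genes tested were called between the lines. ADAMTS3, a procollagen N-proteinase that also processes the lymphatic growth factor VEGFC, measured 260 ± 16.5 CPM in H226 and 217 ± 3.23 CPM in ACHN. ADAMTS1, which cuts versican and aggrecan, was the higher in ACHN (192 ± 3.84 against 116 ± 2.12 CPM), and ADAMTS15, a relative with similar substrates, the higher in H226 (79.5 ± 3.44 against 35.8 ± 3.75 CPM). The procollagen N-proteinase ADAMTS2 had 2005 pooled counts in H226 and 1 in ACHN (ratio 2210, counting interval 395 to 87200). ADAMTS10, which acts on fibrillin microfibrils, had 678 and 0, at least 249-fold higher in H226. ADAMTS12, which cuts the cartilage protein COMP, was 70.4-fold higher in H226, ADAMTS17 measured 15.1 ± 0.809 CPM there against 0.873 CPM in ACHN, and the versican protease ADAMTS9 was 17.9-fold lower in H226, at 3.30 ± 0.968 against 58.4 ± 0.664 CPM. Versican itself (VCAN), a substrate of ADAMTS1, ADAMTS9 and ADAMTS15, was at 829 CPM in ACHN and had 1 pooled count in H226.

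Levels of different genes can be set side by side only per length. On CPM per kilobase of the longest transcript, TIMP2 came first in both lines, with 417 ± 11 in H226 and 97.7 ± 2.05 in ACHN. TIMP1 followed at 50.8 ± 5.70 and 50.8 ± 3.32. Then came in H226 MMP24 (43.8 ± 1.33), TIMP3 (42.6 ± 2.08), ADAMTS3 (40.5 ± 2.57) and MMP14 (38.0 ± 0.318), with TIMP3 within 1 SD of MMP24 and of ADAMTS3. In ACHN ADAMTS1 (36.9 ± 0.740) and ADAMTS3 (33.8 ± 0.505) came next, then MMP24 (23.2 ± 1.19) and MMP14 (16.45 ± 0.712). Per kilobase of mean transcript length TIMP2 stayed first, at 469 and 109.9, but MMP14 came second in H226 at 112 and ADAMTS1 second in ACHN at 90.7, so the order below TIMP2 rests on the length used.

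SWTX-143 in H226 lowered the proteoglycan-cutting ADAMTS1, ADAMTS15 and ADAMTS5 and raised 6 MMPs. Of 30 genes that passed the filter, 8 fell and 11 rose. Over all 13484 genes tested 40.7% were called, 21.6% lower and 19% higher. The median log2 fold change of the 30 was 0.23, against −0.00 over all genes. All 6 MMP calls were rises (of 11 tested), the 13 tested ADAMTS genes gave 5 falls and 4 rises, the 3 tested ADAMTSL genes 2 falls, and the 3 tested TIMPs 1 of each. Of the 11 MMPs, MMP9 and the uncalled MMP11 passed the filter only through their treated libraries. A fall from their DMSO levels could not have been tested. In RNA from whole cultures, fewer cells that express a gene and less of its RNA per cell cannot be told apart. The split of all calls depended on scaling, 2919 lower and 2567 higher as reported and 2324 lower and 3283 higher under upper-quartile scaling, where the members gave 8 and 14.

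ADAMTS1 showed the largest fall among them. It measured 116, 114 and 118 CPM under DMSO and 45.0, 46.8 and 42.9 CPM under SWTX-143, 2.59-fold lower (log2 −1.38 ± 0.0548, edgeR adjusted p = 2.32e-28). ADAMTS15 measured 77.2, 77.8 and 83.4 CPM and then 33.0, 34.2 and 32.5 CPM, 2.40-fold lower (log2 −1.27 ± 0.0614, edgeR adjusted p = 1.68e-24). For both, the treated and control libraries were far apart relative to their spread. ADAMTS5, a main aggrecan-cutting protease of cartilage and the neighbour of ADAMTS1 on chromosome 21, measured 20.9, 20.7 and 22.1 CPM and then 12.8, 14.5 and 15.8 CPM (log2 −0.57 ± 0.0975, edgeR adjusted p = 3.2e-06). Of the 7 proteoglycan-cutting ADAMTS genes, 4 were tested, 3 fell, and ADAMTS9 was not called (log2 0.23, interval −0.19 to 0.64).

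Falls were also called in 5 further H226 genes. ADAMTS12 went from 77.2, 75.2 and 79.1 CPM to 50.2, 49.4 and 54.3 CPM (log2 −0.60 ± 0.0578, edgeR adjusted p = 8.64e-13). ADAMTS3 went from 279, 250 and 250.2 CPM to 215, 205 and 224 CPM (log2 −0.28 ± 0.0456). TIMP3 went from 186, 205 and 197 CPM to 164, 147 and 154 CPM (log2 −0.35 ± 0.0470, edgeR adjusted p = 1.5e-08). In each of these 3 genes every treated library was below every control library. ADAMTSL4, which binds fibrillin and is mutated in displaced lenses of the eye, fell from 87.9 ± 3.57 to 72.1 ± 4.75 CPM (log2 −0.29 ± 0.0553). ADAMTSL5 fell from 14.6 ± 1.39 to 11.6 ± 0.804 CPM (log2 −0.34 ± 0.112, edgeR adjusted p = 0.0109), a call lost in DESeq2 (adjusted p = 0.0849), without DMSO replicate 2 (adjusted p = 0.092) and without SWTX-143 replicate 1 (adjusted p = 0.0647).

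The rises in H226 included ADAMTS proteases of the collagen and fibrillin groups. ADAMTS10 measured 21.98, 21.5 and 24.1 CPM under DMSO and 31.1, 35.8 and 39.3 CPM under SWTX-143 (log2 0.65 ± 0.0829, edgeR adjusted p = 5.9e-09). ADAMTS17, the relative of ADAMTS10 that is linked to the same short-stature syndrome, rose by the same log2 0.65 (± 0.0939), from 15.1 ± 0.809 to 23.8 ± 1.86 CPM. ADAMTS2 measured 64.1, 67.6 and 67.7 CPM and then 86.1, 90.6 and 87.0 CPM (log2 0.40 ± 0.0536, edgeR adjusted p = 1.55e-08). The COMP-cutting ADAMTS7 rose from 46.1 ± 1.30 to 54.3 ± 1.26 CPM (log2 0.23 ± 0.0610). Thus the procollagen N-proteinases did not move as one: ADAMTS2 rose, ADAMTS3 fell, and ADAMTS14 was not called (log2 0.12, interval −0.22 to 0.47).

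**Figure D2:**
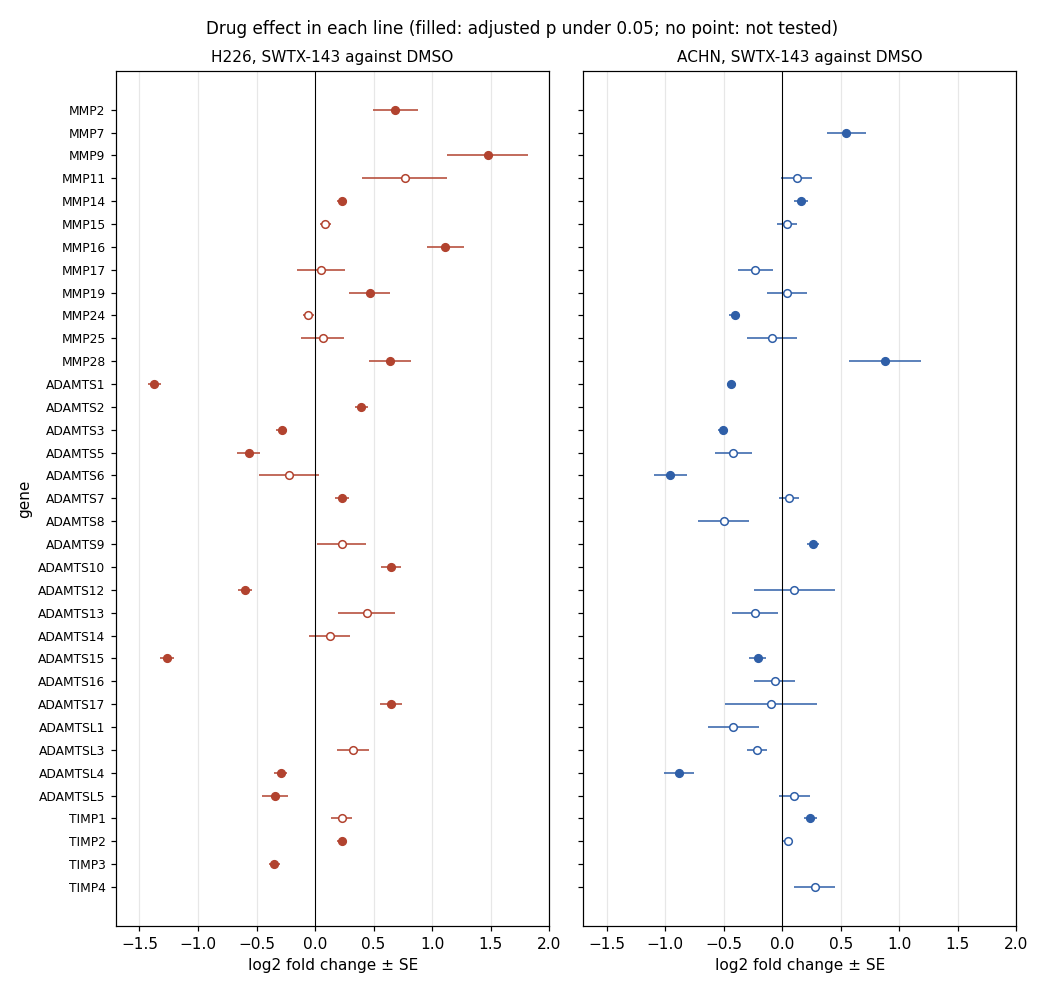
Log2 fold change under SWTX-143 with its SE (bars) in H226 (left, red) and ACHN (right, blue), with filled points for an edgeR adjusted p under 0.05, open points for tested genes that were not called, and no point for genes that were not tested. ADAMTS1 and ADAMTS15 lie below −1 in H226 only, and the MMP points with a call lie right of 0 in both lines except MMP24 in ACHN.

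Among the H226 MMPs, the largest fold changes were in genes with few counts. MMP9 measured 0.566, 0.856 and 0.660 CPM under DMSO, 21 pooled counts, and 1.88, 1.77 and 2.25 CPM under SWTX-143, 62 pooled counts (log2 1.47 ± 0.344, edgeR adjusted p = 3.95e-04). The antisense gene SLC12A5-AS1, which was not among the symbols counted and so was not measured, overlaps 430 of the 2336 exon bases of MMP9. Its part in the MMP9 count was not tested. MMP16 measured 5.66, 4.57 and 4.29 CPM and then 9.78, 8.83 and 13.2 CPM (log2 1.11 ± 0.158, edgeR adjusted p = 1.56e-07). MMP2 measured 2.74, 3.14 and 3.30 CPM and then 4.94, 5.21 and 4.68 CPM (log2 0.69 ± 0.190, edgeR adjusted p = 0.00274). In all 3 the treated libraries lay above the controls, and both gelatinases were among them. MMP9 was tested only because its treated libraries passed the filter, so its direction was set by that filter. MMP14 was better covered and moved less, from 143, 141 and 142 CPM to 169.6, 171 and 163 CPM (log2 0.23 ± 0.0451, edgeR adjusted p = 2.99e-05).

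MMP28 and MMP19, both at a few CPM, were called with less certainty in H226. MMP28 rose from 4.04 ± 0.728 to 6.34 ± 1.42 CPM (log2 0.64 ± 0.180, edgeR adjusted p = 0.00333), but without SWTX-143 replicate 2 its log2 fold change was 0.47 (adjusted p = 0.0629). MMP19 rose from 4.12 ± 0.908 to 5.67 ± 0.528 CPM (log2 0.47 ± 0.178, edgeR adjusted p = 0.0307). That call was lost in DESeq2 (adjusted p = 0.154) and without DMSO replicate 1, DMSO replicate 2 or SWTX-143 replicate 3 (adjusted p = 0.136, 0.132 and 0.109). TMEM198B, which overlaps 814 of its 4672 exon bases, rose as well, from 13.8 to 17.8 CPM (log2 0.37, edgeR adjusted p = 0.0113), and its part in the MMP19 count was not tested. The better covered MMP24 and MMP15 were not called: MMP24 had a log2 fold change of −0.06 (interval −0.14 to 0.03) and MMP15 one of 0.09 (interval −0.01 to 0.18). MMP15 was called higher under upper-quartile scaling (0.14, adjusted p = 0.0186), library size alone (0.13, adjusted p = 0.0257) and without SWTX-143 replicate 3 (0.13, adjusted p = 0.0252).

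The inhibitor TIMP2 rose in H226 while TIMP3 fell. TIMP2 measured 1475, 1541 and 1549 CPM under DMSO and 1837, 1821 and 1716 CPM under SWTX-143 (log2 0.23 ± 0.0378, edgeR adjusted p = 1.79e-06). All 3 treated libraries were above the controls. TIMP1 measured 48.7, 57.5 and 60.8 CPM and then 68.5, 70.5 and 57.2 CPM, so the groups overlapped through the third treated library. Its log2 fold change of 0.23 ± 0.0879 was not called (edgeR adjusted p = 0.0554). Without SWTX-143 replicate 3 the value was 0.32 (adjusted p = 8.46e-06), without DMSO replicate 3 it was 0.29 (adjusted p = 0.012), and DESeq2 gave 0.23 (adjusted p = 0.0434). It was also called under upper-quartile scaling, library size alone, no filter, a filter of 5 CPM and the fit of all libraries (adjusted p = 0.0192, 0.0206, 0.00116, 0.0414 and 0.00825), and its highest adjusted p was 0.186, without SWTX-143 replicate 1.

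**Figure D3:**
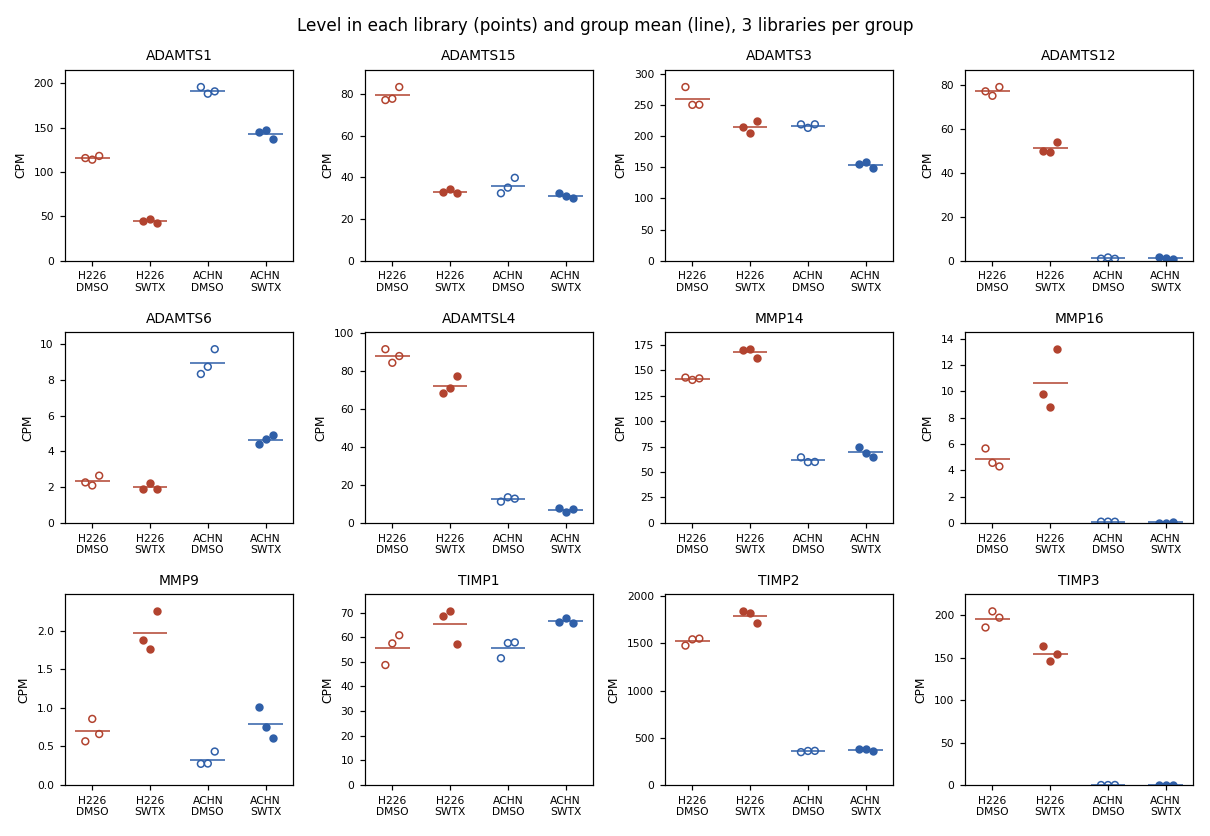
CPM of 12 genes of the families in every library (points) with the mean of the 3 libraries (line), in H226 (red) and ACHN (blue), open for DMSO and filled for SWTX-143; each panel has its own linear axis from 0. ADAMTS1 drops from about 116 to 44.9 CPM in H226, and TIMP1 in H226 shows 1 treated library within the range of the controls.

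In ACHN the drug changed fewer of the genes. Of 28 that passed the filter, 6 fell and 5 rose, where 17.8% of all 13483 genes tested were called, 9.37% lower and 8.43% higher. The median log2 fold change of the 28 was −0.08, against 0.00 over all genes. The 12 tested ADAMTS genes gave 4 falls and 1 rise, the 9 MMPs 1 fall and 3 rises, the 4 ADAMTSL genes 1 fall and the 3 TIMPs 1 rise. All genes split into 1264 lower and 1137 higher as reported and into 977 lower and 1537 higher under library size alone, where the members gave 5 and 5. DESeq2 called 2 of the rises, ADAMTS9 and TIMP1, and leaving out 1 library at a time left 3 or 4 rises.

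The falls in ACHN were led by ADAMTS6 and ADAMTSL4, both linked to fibrillin microfibrils. ADAMTS6 measured 8.33, 8.73 and 9.72 CPM under DMSO and 4.39, 4.70 and 4.90 CPM under SWTX-143 (log2 −0.95 ± 0.145, edgeR adjusted p = 9.69e-07). ADAMTSL4 measured 11.2, 13.5 and 12.8 CPM and then 7.68, 5.64 and 7.08 CPM (log2 −0.88 ± 0.128, edgeR adjusted p = 3.52e-07). Neither gene's treated libraries overlapped the controls. ADAMTS3 measured 219, 213 and 219 CPM and then 155, 158 and 149.5 CPM (log2 −0.51 ± 0.0395, edgeR adjusted p = 2.43e-15), and ADAMTS1 measured 196, 188 and 191 CPM and then 145, 147 and 137 CPM (log2 −0.43 ± 0.0407, edgeR adjusted p = 1.78e-12).

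MMP24 was the only MMP called lower in either line. In ACHN it measured 99.5, 99.2 and 108 CPM under DMSO and 83.4, 75.4 and 75.3 CPM under SWTX-143 (log2 −0.41 ± 0.0509, edgeR adjusted p = 8.95e-09). MMP24-AS1, which shares exon bases with it, was at 59.7 and 57.1 CPM (log2 −0.08, edgeR adjusted p = 0.409). ADAMTS15 measured 32.4, 35.1 and 39.8 CPM and then 32.3, 31.3 and 30.3 CPM, a fall of 0.21 ± 0.0729 on the log2 scale (edgeR adjusted p = 0.0369) with the lowest control and the highest treated library next to each other. That call was lost under upper-quartile scaling, library size alone, DESeq2 and the fit of all libraries (adjusted p = 0.0715, 0.0788, 0.166 and 0.0507). It was also lost without DMSO replicate 2 or 3 (adjusted p = 0.0632 and 0.361) and without SWTX-143 replicate 1, 2 or 3 (adjusted p = 0.0572, 0.0692 and 0.126). ADAMTS5 was not called in ACHN (log2 −0.42, interval −0.73 to −0.11, edgeR adjusted p = 0.0613), but was without DMSO replicate 3 (−0.51, adjusted p = 0.0439).

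Of the 5 rises in ACHN, ADAMTS9 and TIMP1 were the firmest. ADAMTS9 measured 58.7, 57.6 and 58.8 CPM under DMSO and 70.4, 72.3 and 69.7 CPM under SWTX-143 (log2 0.26 ± 0.0535, edgeR adjusted p = 2.07e-04). ADAMTS9-AS1, overlapping 174 of its 10680 exon bases, rose too (log2 0.73, edgeR adjusted p = 0.0127) but at only 2.17 CPM under DMSO. TIMP1 measured 51.4, 57.6 and 57.9 CPM and then 66.1, 67.6 and 65.9 CPM (log2 0.24 ± 0.0564, edgeR adjusted p = 0.00118). Both genes had every treated library above every control. TIMP2 was not called, at 357 ± 7.49 and 372 ± 13.6 CPM (log2 0.05, interval −0.03 to 0.12), nor was TIMP4 (log2 0.28, interval −0.06 to 0.62).

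The 3 MMP rises in ACHN each depended on single libraries. MMP7 measured 3.57, 4.74 and 4.60 CPM and then 5.91, 7.05 and 6.21 CPM (log2 0.55 ± 0.163, edgeR adjusted p = 0.0124), and its call was lost in DESeq2 (adjusted p = 0.0976), without DMSO replicate 1 (adjusted p = 0.0934) and without SWTX-143 replicate 2 (adjusted p = 0.0595). MMP14 measured 64.4, 59.7 and 60.0 CPM and then 74.3, 68.4 and 65.2 CPM (log2 0.16 ± 0.0562, edgeR adjusted p = 0.0379). Its call was lost in DESeq2 (adjusted p = 0.155) and without DMSO replicate 2, DMSO replicate 3 or SWTX-143 replicate 1 (adjusted p = 0.129, 0.16 and 0.265). MMP28, at 0.988 ± 0.298 and 1.86 ± 0.0684 CPM (log2 0.88 ± 0.308, edgeR adjusted p = 0.0384), lost its call without DMSO replicate 1 or 2 (adjusted p = 0.0603 and 0.214) or any one SWTX-143 replicate (adjusted p = 0.0934, 0.0626 and 0.0943). MMP9 was too low to be tested in ACHN, with 11 pooled counts under DMSO and 27 under SWTX-143.

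**Figure D4:**
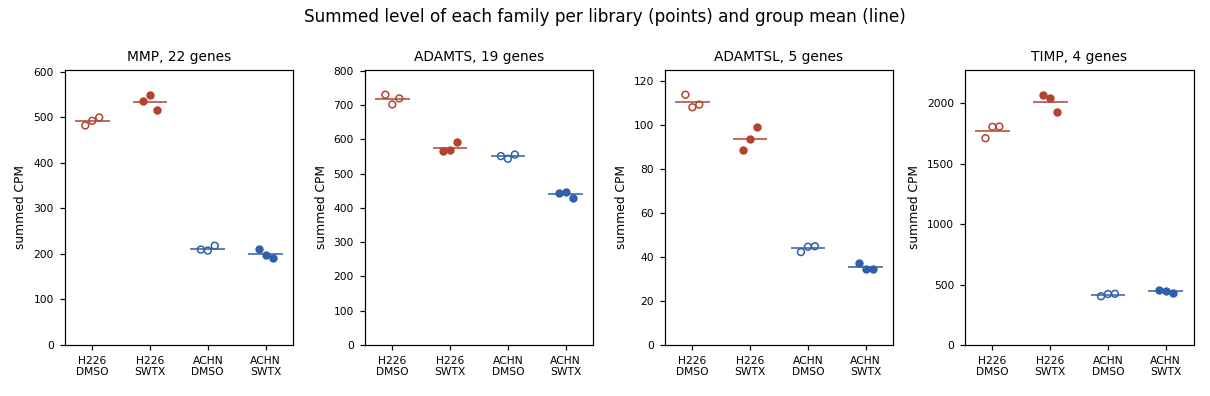
Summed CPM of the MMP, ADAMTS, ADAMTSL and TIMP genes in each library (points) with the group mean (line), in H226 (red) and ACHN (blue), open for DMSO and filled for SWTX-143, on linear axes from 0. The ADAMTS sum is lower under SWTX-143 in both lines, and the ACHN MMP sums of treated and control libraries overlap.

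The sums of each family add CPM without correction for length, so long transcripts weigh more in them. The ADAMTS genes together went from 717 ± 14.2 to 575 ± 14.0 CPM in H226 and from 550.1 ± 6.14 to 440.5 ± 10.2 CPM in ACHN, with no overlap between treated and control libraries in either line. ADAMTS3 and ADAMTS1, which fell in both lines, held 36.2% and 16.1% of this sum in H226 DMSO and 39.4% and 34.8% in ACHN DMSO. The sum therefore does not show a fall across the family: 4 ADAMTS genes rose in H226, and 7 of the 12 tested in ACHN were not called. The ADAMTSL sum went from 110.2 ± 3.02 to 93.7 ± 5.21 CPM in H226 and from 43.9 ± 1.46 to 35.4 ± 1.59 CPM in ACHN. The MMP sum went in H226 from 491 ± 8.76 to 534 ± 17.1 CPM, while in ACHN it was 212 ± 5.66 and 199 ± 9.96 CPM with overlapping libraries. The TIMP sum went from 1774 ± 55.0 to 2012 ± 74.6 CPM in H226 and from 416 ± 11.3 to 444 ± 14.1 CPM in ACHN. TIMP2 alone held 85.8% and 89.0% of that sum in H226 and 85.7% and 83.9% in ACHN, so the sum follows TIMP2 and does not show the fall of TIMP3. These shares hold for CPM only. Per kilobase of the longest transcript, TIMP2 and TIMP1 were at 417 and 50.8 in H226 DMSO and at 97.7 and 50.8 in ACHN DMSO. No test was run on the sums.

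Both lines tested 23 of the genes. In 6 of them a change was called in both lines, and always in the same direction: ADAMTS1, ADAMTS3, ADAMTS15 and ADAMTSL4 fell, and MMP14 and MMP28 rose. That is 26.1% of the 23, where 1389 of 12333 genes tested in both lines were called in both (11.3%), 122 of them in opposite directions. Calls within a single line were also more frequent among the members. Of the 23, 13 were called in H226 and 10 in ACHN, and of the 12333 genes 5024 and 2190. Whether the 6 shared calls exceed what those single calls would give was not tested. The ACHN calls of ADAMTS15, MMP14 and MMP28 are those that were lost when single libraries were left out.

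The sizes of the changes were compared in 1 fit of all 12 libraries, with the ACHN effect subtracted from that of H226, so this contrast uses the same libraries as the comparisons within lines. Of 35 genes tested, 2 had a lower and 5 a higher value in H226, where 15.6% of 14664 genes were called, 9.7% lower and 5.89% higher. Those calls split into 1423 lower and 863 higher as reported and 1045 and 1159 under upper-quartile scaling, where the members again gave 2 and 5. ADAMTS1 and ADAMTS15 fell more in H226, by 0.95 ± 0.0699 and 1.06 ± 0.0962 on the log2 scale (edgeR adjusted p = 2.97e-19 and 4.42e-15). ADAMTS3 and ADAMTSL4 fell more in ACHN, with differences of 0.22 ± 0.0621 and 0.58 ± 0.134 (edgeR adjusted p = 0.00816 and 7.89e-04). These 4 genes are named for their calls in this contrast and do not speak for their groups. The other tested proteoglycan-cutting genes, ADAMTS5, ADAMTS8 and ADAMTS9, were not called (−0.15, −0.22 and −0.04). Neither were the procollagen N-proteinases ADAMTS2 and ADAMTS14 (2.25 and 0.16) nor the fibrillin-linked ADAMTS10 (−3.57). ADAMTS2 and ADAMTS10 had 1 and 0 pooled counts in ACHN DMSO.

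MMP24, TIMP2 and ADAMTSL3 also differed in response. For MMP24 the difference was 0.34 ± 0.0684 (edgeR adjusted p = 7.52e-05), with a fall in ACHN and none called in H226. For TIMP2 it was 0.17 ± 0.0547 (edgeR adjusted p = 0.0183), a call lost without ACHN DMSO replicate 2 or 3 or ACHN SWTX-143 replicate 3 (adjusted p = 0.0503, 0.0612 and 0.0683). ADAMTSL3, a secreted glycoprotein called in neither line (edgeR adjusted p = 0.0562 in H226 and 0.0795 in ACHN), measured 6.96 ± 0.637 and 8.80 ± 0.905 CPM in H226 and 20.8 ± 0.644 and 18.1 ± 0.754 CPM in ACHN. Its difference of 0.53 ± 0.161 was called (edgeR adjusted p = 0.0136; 0.0509 without H226 SWTX-143 replicate 2). The differences of TIMP1 (−0.02, interval −0.22 to 0.18) and MMP14 (0.06, interval −0.08 to 0.21) were not called, and neither was that of ADAMTS6 (0.72, interval 0.15 to 1.30, edgeR adjusted p = 0.0833).

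Genes around these proteases were taken from 3 further lists. Of 9 tested ADAM proteases, the membrane-bound relatives, none fell and 3 rose in H226, among them the shedding enzyme ADAM17 (196 to 246 CPM, log2 0.32 ± 0.0447), ADAM9 (log2 0.17 ± 0.0384) and ADAM19 (log2 0.38 ± 0.0935). That is 33.3% called, below the 40.7% of all genes. In ACHN 1 of 8 fell, ADAM10 (log2 −0.18 ± 0.0356), and 2 rose, ADAM8 (log2 0.62 ± 0.164) and ADAM17 (log2 0.13 ± 0.0424), 37.5% against 17.8% of all genes. Of 17 tested activators, inhibitors and receptors of these proteases, 3 fell and 6 rose in H226, and of 15 in ACHN, 1 fell and 4 rose (52.9% and 33.3% called). The proprotein convertase PCSK7 fell in H226 (log2 −0.24 ± 0.0574), and the proteoglycan SPOCK2 rose (log2 0.86 ± 0.176). CD44, a docking site for MMPs at the cell surface, rose in both lines (log2 0.17 ± 0.0385 and 0.23 ± 0.0339). In ACHN SPOCK1 (log2 0.43 ± 0.0491), papilin (PAPLN, log2 0.59 ± 0.0706) and the protease inhibitor TFPI2 (log2 0.20 ± 0.0386) rose.

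Of the matrix substrates and fibrillin partners, 17 were tested in H226, where 2 fell and 5 rose, and 14 in ACHN, where 4 fell and 7 rose. The share called was 41.2% in H226, close to the 40.7% of all genes, and 78.6% in ACHN, against 17.8%. The basement membrane collagen COL4A1 fell in both lines, from 1239 ± 17.1 to 1055 ± 18.9 CPM in H226 (log2 −0.24 ± 0.0375) and from 563 ± 9.37 to 394 ± 11.7 CPM in ACHN (log2 −0.53 ± 0.0351). The cell surface proteoglycan SDC1 fell in H226 (log2 −0.54 ± 0.0463), where SDC4 (log2 0.20 ± 0.0408) and brevican (BCAN, log2 0.51 ± 0.120) rose. COL4A2 (log2 −0.27 ± 0.0347) and perlecan (HSPG2, log2 −0.26 ± 0.0398) fell in ACHN, and fibronectin (FN1, log2 0.23 ± 0.0387) rose. The medians of the 3 lists in H226 were 0.20, 0.18 and 0.13 and in ACHN 0.11, 0.16 and 0.12, with −0.00 and 0.00 over all genes.

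The remaining members did not pass the filter or were not called under the drug. MMP17, MMP25, ADAMTS13 and MMP11 were tested in both lines, with log2 fold changes of 0.05, 0.07, 0.44 and 0.77 in H226 and −0.23, −0.09, −0.23 and 0.12 in ACHN. MMP25 overlaps MMP25-AS1 over 35.2% of its exon bases. ADAMTS8, ADAMTS16 and ADAMTSL1 were tested in ACHN only, at −0.50, −0.07 and −0.42. MMP15, MMP19, ADAMTS7, ADAMTS12, ADAMTS17 and ADAMTSL5 were not called in ACHN, at 0.04, 0.04, 0.06, 0.10, −0.10 and 0.10, nor was ADAMTS6 in H226, at −0.22. ADAMTS4, ADAMTS20, ADAMTSL2, MMP3, MMP10 and MMP21 had no count in ACHN DMSO and 1 to 5 pooled counts in H226 DMSO, and ADAMTS18 had 14 in H226 and 33 in ACHN.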

How the data were processed

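The deposited tables, 1 per line, held whole-number read counts per gene symbol, written by the authors. Per the submitters' processing notes, FastQC, cutadapt and STAR 2.6.1d were used with hg19 (GRCh37). The counting program, strand setting, treatment of multi-mapping reads and annotation were not given in the sources used here, so overlapping genes cannot be told apart. The members and gene lists were chosen with earlier results of these data known.

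In R 4.3.3, edgeR 4.0.16 fitted each line's 6 libraries (filterByExpr, TMM, robust quasi-likelihood F test, Benjamini-Hochberg over all genes tested, limit 0.05), after the procedure was tested on simulated data. All 12 libraries were fitted together for the difference between lines and for the DMSO groups. Each SE is the size of the log2 fold change over the square root of F. In each library 3 counts equal 0.253 to 0.330 CPM. Named genes were members called at a mean of 1 CPM or more, members at 10 CPM or more under DMSO, all TIMPs, members whose response differed between lines, and up to 4 genes per pathway list and line by smallest p, of which 1 is not reported here. Others are given by name, chosen to account for every member. Alternatives were other scalings, DESeq2 1.42.0, other filters, the replicate block, other samples in the fit, leaving out each library, and mean transcript length. Transcript lengths and overlaps came from GENCODE 29 (GRCh38), and no coordinate was moved between builds.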

Additional observations from a re-analysis of the deposited data

Results flagged for a closer look

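A test of the difference itself, with the ACHN effect subtracted from that of H226 in 1 fit of all 12 libraries (edgeR, adjusted over all genes tested), singled out 7 members. ADAMTS1 (−0.95, adjusted p = 2.97e-19) and ADAMTS15 (−1.06, adjusted p = 4.42e-15) fell more in H226. ADAMTSL4 (0.58, adjusted p = 7.89e-04) and ADAMTS3 (0.22, adjusted p = 0.00816) fell more in ACHN, and MMP24 (0.34, adjusted p = 7.52e-05) was called lower in ACHN alone. ADAMTSL3 (0.53, adjusted p = 0.0136) was called in neither line by itself, and TIMP2 (0.17, adjusted p = 0.0183) was called higher in H226. In the same contrast the TEAD targets CTGF and CYR61 had −0.15 and −0.14 (adjusted p = 0.414 and 0.0798) and ANKRD1 had −0.71 (adjusted p = 0.00729). No gene was searched for outlying samples, since each group had 3 libraries.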

How the results depend on the processing

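Of 126 counts of called members under alternatives, 121 stayed within 1.5 times the reported count. The 5 others were the rises in ACHN, 5 as reported: 2 in DESeq2, which gave MMP28 no adjusted p, and 3 without DMSO replicate 1 or 2 or SWTX-143 replicate 1 or 2. Leaving out 1 library at a time gave ranges of 3 to 4 rises and 5 to 6 falls in ACHN, 10 to 14 and 7 to 8 in H226, 4 to 5 and 2 to 2 for the difference, and 19 to 20 and 12 to 14 between DMSO groups. Of 1575 values of single genes under alternatives, 1488 kept direction and side of the threshold, 34 lost and 24 gained a call, and 29 changed sign, 0 of them in a gene called in that comparison. With 1 library left out in turn, the range crossed 0 in ACHN for ADAMTS12 (−0.20 to 0.39), MMP19 (−0.11 to 0.21), ADAMTS17 (−0.37 to 0.11) and MMP15 (−0.01 to 0.09). It did so in the difference for ADAMTS9 (−0.20 to 0.21), TIMP1 (−0.07 to 0.11), MMP9 (−0.00 to 0.48), TIMP3 (−0.34 to 1.94) and MMP15 (−0.01 to 0.13), and between DMSO groups for TIMP1 (−0.06 to 0.10). Under upper-quartile scaling the difference was 0.00 for ADAMTS9 and 0.02 for TIMP1, which was 0.00 in DESeq2 and 0.01 with no filter on low counts, and with a filter of 5 CPM the ratio of TIMP1 between DMSO groups was 0.03. The causes of these changes were not tested. The difference of TIMP3, above 0 as reported and not called, came from 1 pooled count in ACHN DMSO against 0 under SWTX-143, and turned to −0.34 without the library that holds that count, ACHN DMSO replicate 3.

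The replicate numbers showed no clear pairing of the libraries. Deviations of same-numbered DMSO and SWTX-143 libraries correlated at −0.05, 0.16 and 0.10 in H226 and at −0.13, −0.16 and −0.05 in ACHN. Libraries of different number correlated at −0.25 to 0.15 in H226 and at −0.04 to 0.16 in ACHN. With 3 libraries per group these values cannot exclude pairing. With the replicate block, 8 members fell and 12 rose in H226, and 6 fell and 4 rose in ACHN. MMP14 in ACHN kept a log2 fold change of 0.16 (edgeR adjusted p = 0.0541), and ADAMTSL3 in H226 was called (0.33, edgeR adjusted p = 0.047). The block changed no other call of a named member. Of 38 levels per kilobase, 28 moved by over 1 SD with mean transcript length. Depth limits the low members: in the drug comparisons that tested them, MMP9, MMP28 and MMP7 had 21 to 216 pooled counts per group.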
